A study of Mus musculus with 6 samples.

Results

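Cadherins are the cell surface proteins by which cells of a tissue hold on to others of their kind, and 84 genes of this superfamily had probes on the arrays used here. They were chosen by symbol, as every gene named Cdh followed by a number, every Pcdh and Celsr gene, and Fat1 to Fat4, and they account for 84 of 16593 named genes and 108 of 25696 probes. Total RNA from the whole brain of E12.5 mouse embryos of strain C57/BL6 was hybridised to Illumina BeadChips, with 1 array for each of 3 knockout and 3 control samples. Both groups were Rest GTi/GTi, with a gene trap that Cre can turn around on both copies of Rest, and p53 fl/fl, with both copies of p53 flanked by loxP sites. Knockout embryos were also Nestin Cre+, whereas control littermates had no Cre. Cre was driven by Nestin sequences, so the recombined alleles are those of neural progenitors and their progeny, while vessels, meninges and blood of the same brain lie outside the intended target. No group carried Cre alone.

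Classical cadherins bind the same cadherin on the neighbouring cell through calcium-stiffened repeats outside the membrane, and hold the actin cytoskeleton inside through catenins. In the embryonic brain they make the junction belt at the ventricular surface and sort neurons into nuclei and layers. Protocadherins lack the catenin-binding tail. Those of the clustered α, β and γ groups are switched on in different combinations in single neurons and let a neuron tell its own branches from those of others. Celsr and Fat proteins are giant cadherins that orient cells within the plane of a sheet and guide axons. REST is a repressor that binds a long DNA element, RE1, near many neuronal genes. Whether adhesion genes differ between brains that lose it early, with p53-dependent death blocked, and brains that keep it is the question the 2 groups address here.

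At this stage most unclustered cadherin genes were measurable and most clustered protocadherin genes were not. A probe was tested where it was detected, at a detection p-value under 0.05 against negative control beads, on at least 3 of the 6 arrays. By that rule 33 genes were tested, through 43 probes. Another 17 genes were detected on fewer arrays, and 34 genes were detected on none. Outside the clusters 23 of 34 genes were tested and 4 were detected on no array, whereas of the 50 clustered genes 10 were tested and 30 were detected on no array. All 3 Celsr genes and all 7 δ-protocadherins on the array were tested. A probe that is not detected sets only an upper limit on its transcript, and levels of different probes were set against each other only to choose the brightest, never as amounts of transcript.

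**Figure D1:**
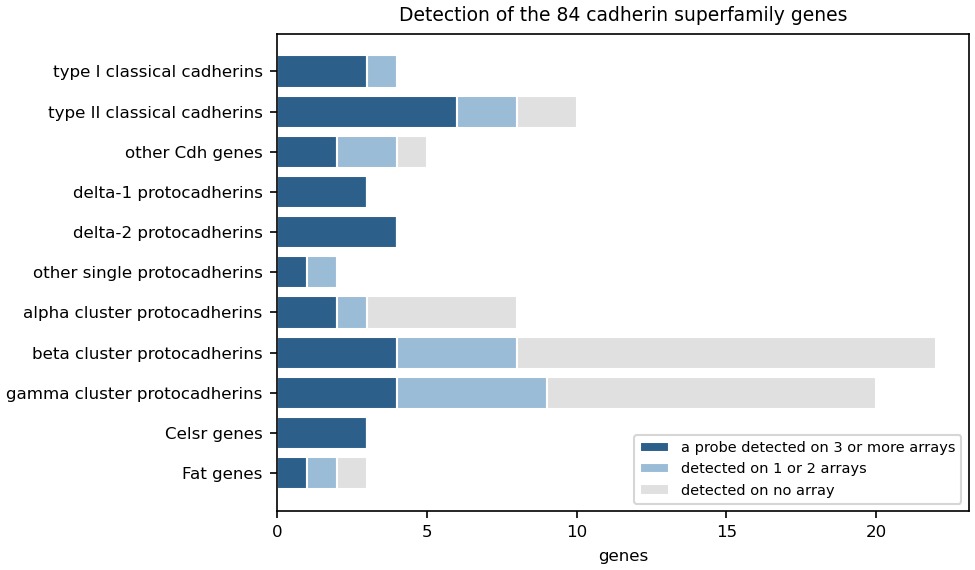
Each bar counts the genes of a cadherin subfamily on the x axis, split into those with a probe detected on 3 or more of the 6 arrays, those detected on 1 or 2 and those detected on none. The β and γ clusters held the most genes and 25 of the 34 genes detected on no array.

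No cadherin superfamily gene passed the test for a difference between knockout and control brains. With limma and Benjamini-Hochberg adjustment, 0 of 43 member probes were called at an adjusted p under 0.05, against 0% of the 13755 probes tested (0 probes), and the smallest adjusted p was 0.999 among members and 0.383 over all probes. At an unadjusted p under 0.05 there were 2 member probes, or 4.65%, against 4.59% of all probes. Both were higher in knockout brains, where 2.25% of all probes were higher at that threshold. They belonged to Celsr3 and Cdh8. The knockout and control arrays did not overlap for 3 member probes, or 6.98%, against 9.3% of all probes, and the third of these was for Pcdhb22, which was lower. The share of members at the unadjusted threshold was thus close to that over all probes, and the share without overlap was below it.

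As a set, the members were centred on no difference. Of the 33 genes, each read by its brightest tested probe, 17 were higher and 16 were lower in knockout brains. Their median difference was 0.00 on the log2 scale, from -0.51 to 0.54, against a median of -0.01 over 9408 genes. The interval that limma allowed was wide for most of them: the 95% interval reached a median of 0.64 to either side of the difference for the 33 member genes, and 0.39 for all genes. For a typical member in 3 arrays against 3, a difference smaller than about that size would not reach even the unadjusted threshold. The adjusted test is stricter, and the smallest size it could detect for these members was not computed. The absence of adjusted calls therefore does not show that a member is unchanged, and by itself it does not exclude differences somewhat larger than that size. The range that the arrays allow for a gene is given by its own 95% interval, which is not adjusted for the number of genes. In total RNA from whole brain, fewer cells of a type and less RNA per cell cannot be told apart.

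**Figure D2:**
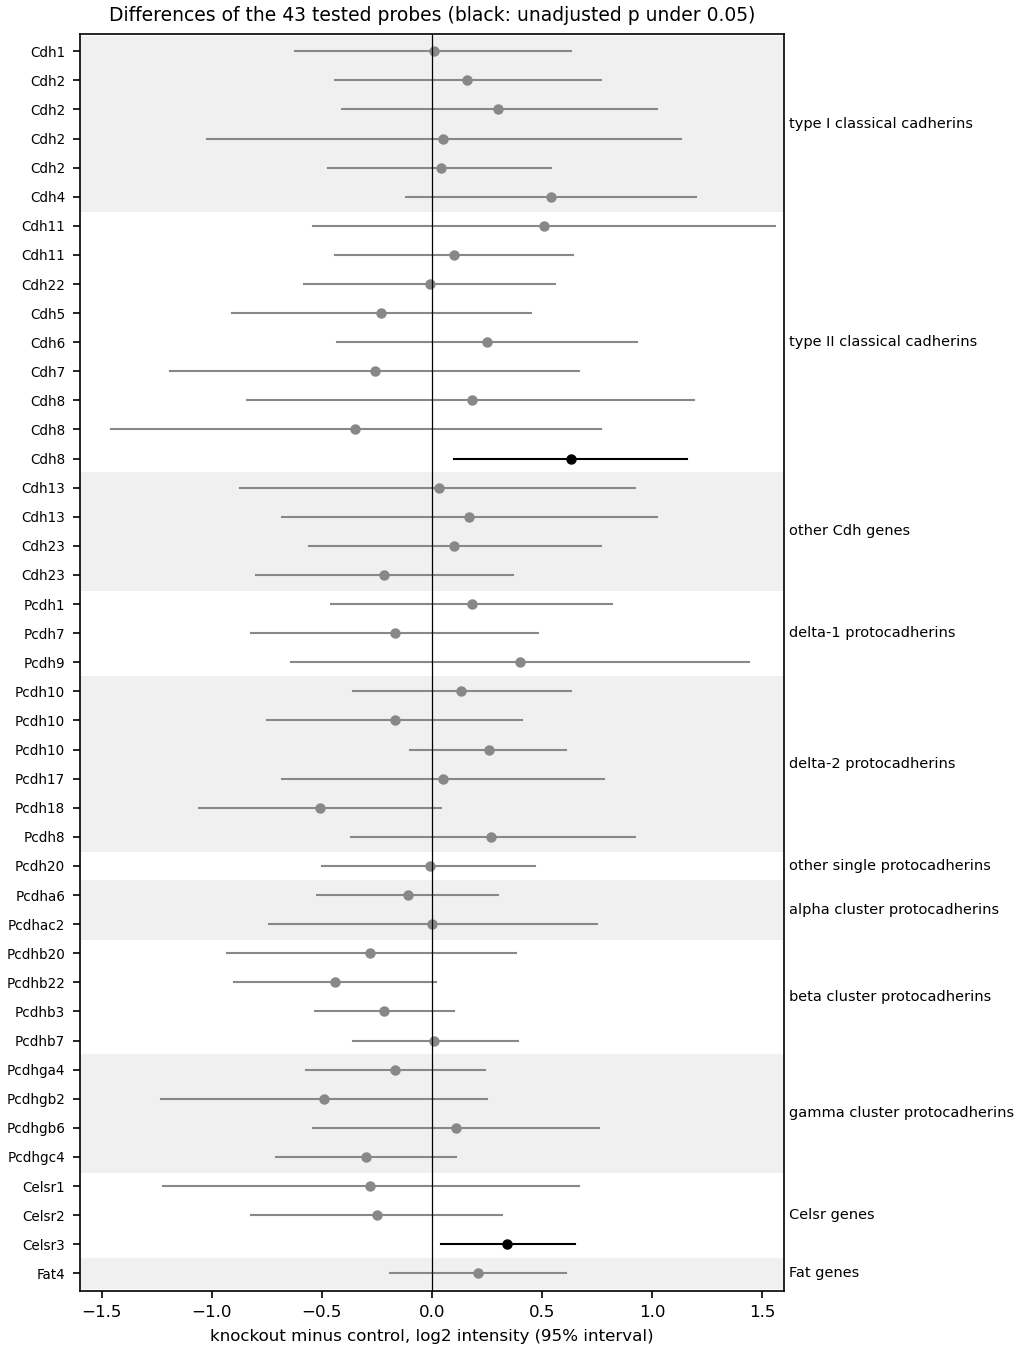
Points show the knockout minus control difference (x axis, log2 intensity) of the 43 tested probes by subfamily, with the 95% interval from limma, and black marks an unadjusted p under 0.05. Only Celsr3 and 1 of the 3 probes for Cdh8 have intervals that leave out 0, and both lie on the side higher in knockout brains.

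Celsr genes encode cadherins with 7 membrane passes that act in planar polarity, the shared orientation of cells in a sheet. Celsr3 is required for axon tracts of the forebrain. Its log2 level was 13.64, 13.87 and 13.62 on the arrays of knockout replicates 1, 2 and 3 and 13.44, 13.41 and 13.26 on those of control replicates 1, 2 and 3. Every knockout array was above every control array. The difference was 0.34 (SE 0.13), or 1.27-fold, with an unadjusted p of 0.0335 and an adjusted p of 0.999 by limma. Under the 15 alternatives that used the repaired probe names it lay between 0.26 and 0.39. Its sign could not change with 1 array left out, since the groups did not overlap. A change of the filter, the test or the replicate block alone left the difference at 0.34. The unadjusted p was under 0.05 in 9 of the 15 and 0.104 by limma at the highest, without control replicate 3. A second probe for Celsr3, ILMN_2699498, was detected on 1 array of each group, with means of 6.40 and 6.36, and gave no test.

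Among the member promoters, that of Celsr3 came closest to the letters of RE1. The element consists of a left and a right arm, and they were searched as TTCAGCACC and GGACAGCGC, on both strands. The search covered 32851 promoter windows of RefSeq on GRCm38.p6, each 300 bases long, from 250 bases before a start to 50 bases after it. That start need not be the first base of the gene, and a gene can have several windows. Windows were found for 22 of the 84 member genes, 25 in all. The left arm was found without a mismatch in 0.371% of all windows and in 1 of the 25 member windows, that of Celsr3. The right arm was found without a mismatch in 0.405% of all windows and in 0 of the member windows. With 1 mismatch allowed, the arms were in 8.25% and 9.12% of all windows and in 3 and 4 of the 25 member windows.

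Both arms in order, with 2 free bases between them, give 18 positions to compare. At most 2 of them mismatched in 12 windows, or 0.0365% of all, and among the members only in Celsr3. There the match was chr9:108825918-108825937 on the plus strand, beginning 127 bases before the start on which its window was drawn. The promoter is shown because it carries that match, as chr9:108825795-108826094 on the plus strand, from 5′ to 3′, with the 20 bases of the window in capitals:
Celsr3 promoter: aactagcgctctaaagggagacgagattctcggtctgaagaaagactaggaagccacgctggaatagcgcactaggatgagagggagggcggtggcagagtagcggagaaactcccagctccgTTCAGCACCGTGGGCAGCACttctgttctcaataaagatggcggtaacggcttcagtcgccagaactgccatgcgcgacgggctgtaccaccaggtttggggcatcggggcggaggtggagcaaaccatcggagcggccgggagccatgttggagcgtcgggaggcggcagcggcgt

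The best windows of other members had 5 or more mismatches. To show how far they lie from the element, the windows of Celsr3, of Pcdh9 (5 mismatches), of Cdh8 (6 mismatches, on the minus strand of its promoter) and of Celsr2 (7 mismatches) are set in the same frame, with matched letters in capitals and mismatched and free bases in lower case:
Celsr3: TTCAGCACCgtGGgCAGCaC
Pcdh9: gTCAGCgCCttGttCcGCGC
Cdh8: cTCAcgAgCacGccCAGCGC
Celsr2: acCcGCgCCccGGcCcGgGC
A match is a description of these letters and not a bound site, and a window of this length leaves out elements that lie farther away. Of all windows, 61.4% had 7 mismatches or fewer, as did 17 of the 25 member windows.

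**Figure D3:**
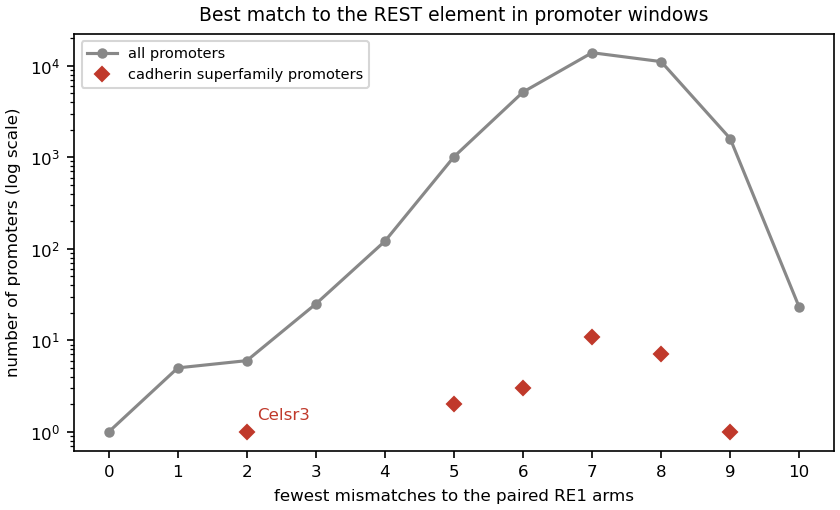
The number of promoter windows (y axis, log scale) is plotted against the fewest mismatches to the paired RE1 arms over 18 positions (x axis), for all 32851 windows (grey) and the 25 member windows (red). Celsr3, at 2 mismatches, lies in the sparse left end with 12 windows at or under 2, while the other member windows have 5 to 9.

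The other genes with so close a match were read on the same arrays. The limit of 2 mismatches was set at Celsr3's own count after its values were seen, so this is a description. Of the 12 genes, 8 had a probe and 7 were tested, and 6 of the 7 were higher in knockout brains, with a median of 0.34 and a range from -0.03 to 0.74. Leaving out Celsr3, which set the limit, 5 of 6 were higher, with a median of 0.42, against 4585 of 9408 named genes and a median of -0.01. The glutamate receptor gene Gria2 was at -0.03 (SE 0.23), the synaptic vesicle gene Syn1 at 0.14 (SE 0.13) and the vesicle trafficking gene Scamp5 at 0.17 (SE 0.11). The homeobox gene Lhx3, which had no mismatch, was at 0.71 (SE 0.52), the histamine receptor gene Hrh3 at 0.67 (SE 0.32) and the oxysterol binding gene Osbp2 at 0.74 (SE 0.36). Of the 6 genes without Celsr3, none had an unadjusted p under 0.05, against 4.17% of named genes.

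The other Celsr genes did not separate the groups. Celsr2, which orients cilia of the ventricle lining, was at 12.08, 13.01 and 12.37 in knockout replicates 1, 2 and 3 and at 12.59, 12.78 and 12.82 in control replicates 1, 2 and 3. Knockout replicate 2 was the highest of the 6 arrays and the other 2 knockout arrays were the lowest, and the difference of -0.25 (SE 0.24) was -0.51 (unadjusted p = 0.0164 by limma) without knockout replicate 2 and -0.05 without knockout replicate 1. Celsr1, which is known from the planar polarity of skin and inner ear, was at 10.71, 9.10 and 10.18 in knockout and 10.51, 9.95 and 10.37 in control brains, a difference of -0.28 (SE 0.40). Here knockout replicate 2 was the lowest and knockout replicate 1 the highest of the 6 arrays. The difference was 0.17 without the former, -0.63 without the latter, -0.44 without control replicate 2 and -0.16 without control replicate 1.

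**Figure D4:**
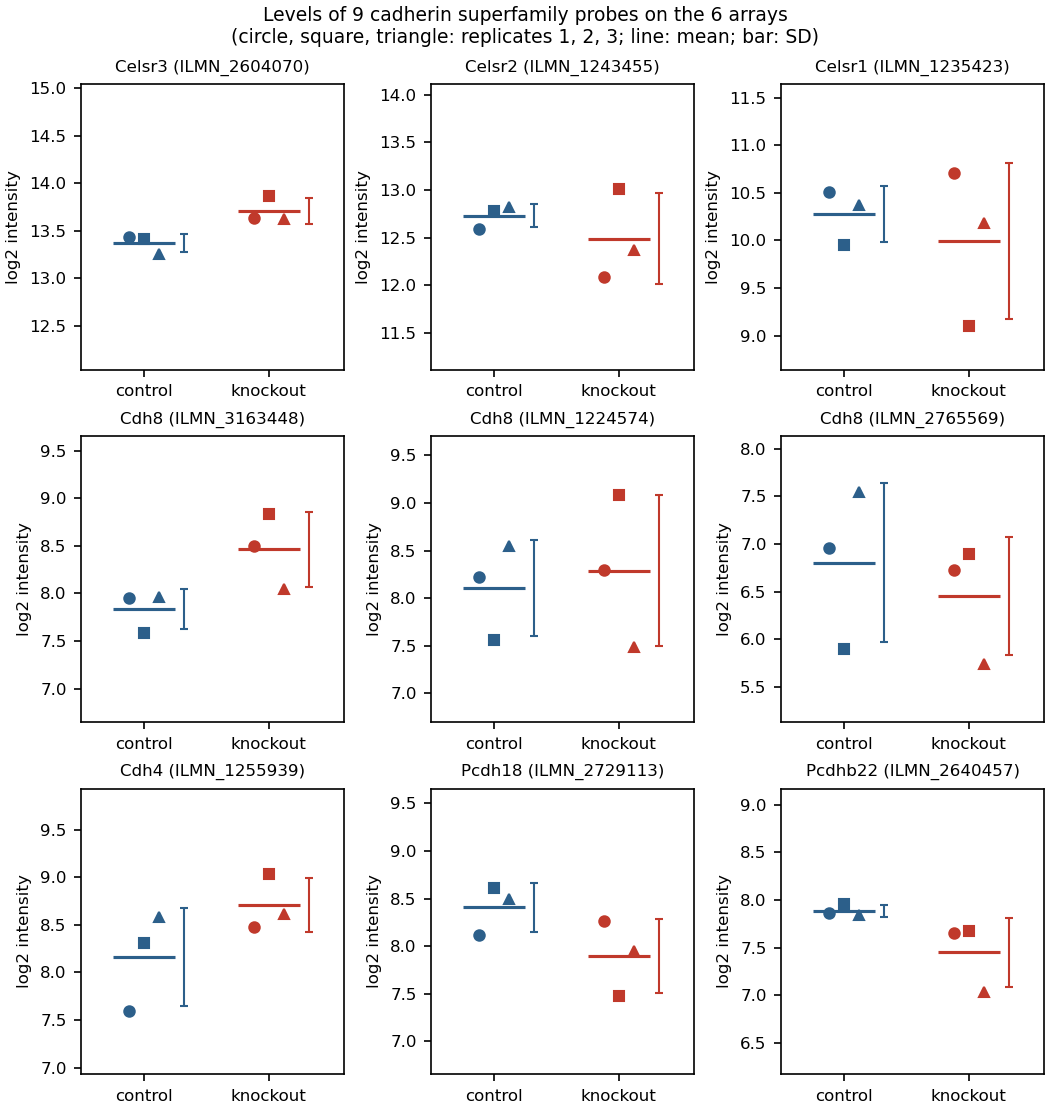
Log2 intensity (y axis) of 9 probes on the 3 control (blue) and 3 knockout (red) arrays, with replicates 1, 2 and 3 as circle, square and triangle, the group mean as a line and the SD as a bar. Celsr3, the Cdh8 probe ILMN_3163448 and Pcdhb22 separate the groups, and the knockout square (replicate 2) is the highest or the lowest knockout point in all 9 panels.

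Type I classical cadherins had 3 tested genes. Cdh2, the N-cadherin of the ventricular junction belt, was read by 4 probes. Its brightest probe was at 10.19, 10.61 and 9.80 in knockout and 10.13, 10.07 and 10.29 in control brains, a difference of 0.04 (SE 0.21), and the other 3 differed by 0.05, 0.16 and 0.30. The groups overlapped for all 4 probes. Cdh4, the R-cadherin of retina and brain nuclei, had the largest difference among the genes, with 8.48, 9.03 and 8.61 in knockout and 7.59, 8.31 and 8.58 in control brains. The difference was 0.54 (SE 0.28), with an unadjusted p of 0.0939 by limma. It was 0.26 without control replicate 1, the lowest array, and 0.75 without control replicate 3. Cdh1, the E-cadherin of epithelia, differed by 0.01 (SE 0.26). For Cdh3, the P-cadherin, 1 of 4 probes was detected on 1 control array.

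Type II classical cadherins share the fold of type I but pair differently, and they divide brain regions and neuron classes. Cdh8, which marks areas of the cortex and their targets, had 3 tested probes that disagreed. Probe ILMN_3163448 was at 8.50, 8.84 and 8.05 in knockout and 7.95, 7.59 and 7.96 in control brains, without overlap, a difference of 0.63 (SE 0.22) or 1.55-fold with an unadjusted p of 0.026 and an adjusted p of 0.999 by limma. Its annotation names another RefSeq transcript than that of the other probes. The brightest probe, ILMN_1224574, was at 8.30, 9.08 and 7.49 in knockout and 8.22, 7.56 and 8.55 in control brains, a difference of 0.18 (SE 0.43). The groups overlapped fully there. Probe ILMN_2765569 differed by -0.35 (SE 0.47), and ILMN_3162873 was detected on no array. The difference of ILMN_3163448 was 0.34 without background correction and 0.45 without knockout replicate 2, so its size depended on the processing and the arrays used. Its direction could not change with 1 array left out, since the groups did not overlap. Whether the probes read different isoforms was not tested.

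The remaining type II genes did not separate the groups. Cdh22, the brightest of them, was at 9.44, 9.46 and 8.66 in knockout and 9.35, 9.25 and 9.0 in control brains, a difference of -0.01 (SE 0.24). Cdh6, which is known from boundaries of the embryonic forebrain, differed by 0.25 (SE 0.29), and Cdh7 by -0.26 (SE 0.39). Cdh11, found in mesenchyme and in some neurons, differed by 0.10 (SE 0.23) on its brightest probe and by 0.51 (SE 0.44) on ILMN_1240529. The latter was 0.07 without control replicate 2, 0.18 without knockout replicate 1 and 0.81 without control replicate 1, and with a term for Xist level it was 0.89 (unadjusted p = 0.00239, adjusted p = 1 by limma). Cdh5, the VE-cadherin of blood vessels, was detected on 2 arrays of each group and differed by -0.23 (SE 0.29). Cdh12 and Cdh24 were each detected on 1 array, and Cdh19 and Cdh20 on none.

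Among the Cdh genes outside the classical types, Cdh13 and Cdh23 were tested. Cdh13, the T-cadherin that is held by a lipid anchor and has no tail inside the cell, was at 6.88, 8.46 and 7.94 in knockout and 7.90, 7.56 and 7.75 in control brains. The knockout arrays held both the lowest and the highest value. The difference was 0.03 (SE 0.38), and 0.17 on its other probe. Cdh23, known from the tip links of hair cells in the ear, differed by 0.10 (SE 0.28) and -0.22 (SE 0.25) on its 2 tested probes. Its partner in those links, Pcdh15, was detected on 2 knockout arrays and 0 control arrays, at 6.42, 6.56 and 6.47 against 6.19, 5.76 and 6.03. These levels lie at the edge of detection and give no fold. Cdh16, known from kidney, was likewise detected on 2 knockout arrays and 0 control arrays, Cdh26 on 1 and 0, and Cdh17, known from the intestine, on none.

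The δ-protocadherins are single genes with long tails that act in cell sorting and axon growth. In the δ-1 group Pcdh1 was at 7.94, 7.63 and 8.62 in knockout and 7.99, 8.06 and 7.59 in control brains, a difference of 0.18 (SE 0.27). Pcdh7 differed by -0.17 (SE 0.27) and Pcdh9 by 0.40 (SE 0.44). Pcdh9 varied most, from 7.42 to 8.68 in knockout and from 6.88 to 8.33 in control brains.

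In the δ-2 group the 3 probes for Pcdh10, which ties adhesion to actin branching, went in different directions. Its brightest probe was at 10.79, 10.27 and 10.18 in knockout and 10.45, 10.28 and 11.01 in control brains, a difference of -0.17 (SE 0.25), and the other 2 differed by 0.13 and 0.26. Pcdh18 had the largest difference on the lower side, at 8.26, 7.48 and 7.95 against 8.12, 8.61 and 8.49. The groups overlapped through the replicate 1 arrays. The difference was -0.51 (SE 0.23) with an unadjusted p of 0.0655 by limma, and -0.30 without knockout replicate 2. Pcdh17, which acts in bundling axons, differed by 0.05 (SE 0.31), Pcdh8 by 0.27 (SE 0.27) and the ungrouped gene Pcdh20 by -0.01 (SE 0.20). Pcdh20 was at 8.26, 8.31 and 7.69 in knockout and 7.98, 8.0 and 8.34 in control brains.

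The clustered protocadherins lie in a row on chromosome 18. Each α or γ gene adds its own first exon to an end shared by the whole cluster, so that a probe in the shared part would read all of its isoforms, whereas β genes share no such end. Probe positions were not used here, and values of single α and γ isoforms, and of near-identical β genes, are uncertain for that reason. Of the 10 tested genes 7 were lower in knockout brains, with a median difference of -0.19 and a range from -0.49 to 0.11. Among members outside the clusters 9 of 23 were lower, with a median of 0.04, against -0.01 over all genes. None of the 10 had an unadjusted p under 0.05.

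Read array by array, 9, 4 and 10 of the 10 clustered genes lay below the control mean in knockout replicates 1, 2 and 3. The same count was 4, 6 and 4 in control replicates 1, 2 and 3. The share of all named genes below the control mean was not counted. Their median deviation was -0.01, -0.01 and 0.01 in knockout replicates 1, 2 and 3. Where probes read shared or near-identical sequence, the 10 genes are not separate observations. By the count over all clustered genes, knockout replicate 2 was no lower than the control arrays. This did not hold for each cluster. On knockout replicate 2 the median deviation was 0.33 for the α genes and 0.02 for the γ genes. For the β genes it was -0.18 there, -0.21 and -0.33 on knockout replicates 1 and 3, and -0.15 to 0.07 on control arrays.

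By cluster, the α genes had a median difference of -0.05, the β genes of -0.25 and the γ genes of -0.23. The α gene Pcdha6 was at 9.93, 10.33 and 9.73 in knockout and 10.16, 10.09 and 10.07 in control brains, a difference of -0.11 (SE 0.17), and Pcdhac2 differed by 0.00 (SE 0.31). Among the β genes Pcdhb22 was the one whose groups did not overlap, with 7.65, 7.67 and 7.03 in knockout and 7.86, 7.96 and 7.84 in control brains. All 3 knockout arrays were lower, by a mean of -0.44 (SE 0.19), with an unadjusted p of 0.0579 and an adjusted p of 0.999 by limma. The difference was -0.23 without knockout replicate 3 and -0.19 without background correction. Pcdhb3 was at 7.98, 7.86 and 8.05 in knockout and 8.23, 8.0 and 8.31 in control brains, a difference of -0.22 (SE 0.13) with overlap. Pcdhb20 differed by -0.28 (SE 0.28) and Pcdhb7 by 0.01 (SE 0.16).

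Among the γ genes Pcdhgb6 was at 7.46, 8.15 and 7.09 in knockout and 7.56, 7.25 and 7.56 in control brains, a difference of 0.11 (SE 0.27). Pcdhgb2 differed by -0.49 (SE 0.31). With 1 array left out it ranged from -0.25, without control replicate 2, to -0.75 (unadjusted p = 0.0414 by limma), without knockout replicate 2, and with a term for Xist level it was -0.72 (unadjusted p = 0.0199 by limma). Pcdhgc4, an isoform that neurons need for survival, differed by -0.30 (SE 0.17), and Pcdhga4 by -0.17 (SE 0.17). All 4 overlapped between groups. Of the clustered genes that were not tested, 10 were detected on 1 or 2 arrays, namely Pcdhac1, Pcdhb8, Pcdhb10, Pcdhb14, Pcdhb17, Pcdhga2, Pcdhga7, Pcdhga10, Pcdhgb7 and Pcdhgc3. Their detections came from knockout arrays 10 times and from control arrays 5 times, each near the detection limit. The same count over all untested probes was not made, so these counts are not read as a difference. Of all probes, 52.8% to 54.1% were detected on knockout arrays and 52.2% to 53.7% on control arrays. No fold was given for any of them.

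Of the Fat genes, Fat4, the receptor of the Dachsous cadherins, was tested. It was at 10.05, 9.92 and 9.89 in knockout and 9.50, 9.67 and 10.06 in control brains, a difference of 0.21 (SE 0.17). Control replicate 3 reached the highest value, so the groups overlapped, and the difference was 0.37 without it and 0.09 without control replicate 1. Fat1 was detected on 1 array of each group and Fat2 on none.

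Genes that work with cadherins were read from lists of partners. The list of catenins and other cytoplasmic partners of cadherins had 6 tested genes of 11 and none with an unadjusted p under 0.05. Their brightest gene, the β-catenin gene Ctnnb1, differed by -0.17 (SE 0.14). The planar polarity partners of Celsr proteins had 5 tested genes of 10 and none at that threshold, and Vangl2 differed by -0.05 (SE 0.12). All 10 genes that set which clustered protocadherin promoter is used, among them Ctcf and the cohesin genes, were tested, with a median of -0.03 and a range from -0.17 to 0.30, and none reached the threshold. The same held for the 3 tested of 7 partners of Fat proteins. The brightest of these last lists, Smc1a and Fjx1, differed by -0.03 (SE 0.12) and 0.04 (SE 0.14).

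Of the proteases that cut cadherins 3 of 4 were tested, and 2 were higher at the unadjusted threshold, where 1.72% of named genes were higher. This list was chosen with earlier results of these data known, so the count is a description and not a test of the list. Values under alternative settings are not given for its genes. Adam10, which sheds the outer part of N-cadherin and of clustered protocadherins, was at 7.59, 7.76 and 7.15 in knockout and 7.02, 6.73 and 7.07 in control brains, a difference of 0.56 (SE 0.19, unadjusted p = 0.022). Psen2, a subunit of the γ-secretase that cuts the remaining stub, was at 7.99, 7.58 and 7.70 in knockout and 7.19, 7.23 and 7.36 in control brains, a difference of 0.50 (SE 0.14, unadjusted p = 0.0111). Neither gene overlapped between groups, as was so for 9.07% of named genes, and neither passed the adjusted test (adjusted p = 0.999 for each by limma). Mmp14, the brightest protease on the list, differed by 0.08 (SE 0.13). Among 2 tested desmosomal genes, Pkp2, of the plaque under desmosomes, was lower at 7.86, 7.64 and 7.76 against 8.31, 8.22 and 7.95, a difference of -0.41 (SE 0.14, unadjusted p = 0.0243, adjusted p = 0.999).

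The arrays themselves differed in the levels of cell type markers. Between 52.2% and 54.1% of all probes were detected per array. On the first principal component knockout replicate 2 had a score of 40.7, against -14.8 to -0.839 for the rest. Mesenchyme and meninges markers, with 9 of 10 tested and Postn detected on no array, had a summed intensity of 1462 on that array, 7308 and 10958 on the other knockout arrays and 8257 to 13098 on control arrays. Markers of endothelium and pericytes summed to 3170 to 5498 in knockout and 5156 to 6024 in control brains, with Kdr and Rgs5 detected on no array, and those of choroid plexus to 14605 to 21865 and 21613 to 31573. The choroid plexus sum mixes markers that differed in direction on knockout replicate 2. There the log2 level of Otx2 was 13.73, against 13.23 to 13.5 on the other arrays, and that of Ttr was 7.89, against 12.94 to 14.01. Markers of young neurons, with 8 of 9 tested, summed to 131966 on knockout replicate 2 and to 88364 to 101041 on the other 5 arrays. Progenitor markers summed to 55800 to 66674 in knockout and 51803 to 59425 in control brains, with 7 of 8 tested. Of the neural markers only Nefl and Pax6 were detected on no array. At an unadjusted p under 0.05 by limma, 2 of 9 tested mesenchyme markers, Dcn and Slc6a13, were lower in knockout brains. So were 2 of 7 tested endothelium markers, Flt1 and Sox17, where 4.17% of named genes reached that threshold in either direction. Dcn, Slc6a13 and Sox17 were lower on every knockout array than on any control array. No tested choroid plexus, young neuron or progenitor marker reached the threshold. The single probe for Rest was detected on 0 of 6 arrays and no probe carried the name Trp53, so neither targeted gene could check the labels. The mean of the 2 probes for Xist, the RNA of the silenced X chromosome, was 11.61 to 11.76 on 1 knockout array (replicate 1) and 2 control arrays (replicates 1 and 3), and 6.05 to 6.28 on the other 3.

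The members had their highest median on knockout replicate 2. Their median deviation from the control mean was 0.17 on knockout replicate 2, where neuronal markers were high and mesenchymal markers low, against -0.14 and -0.13 on the other knockout arrays and -0.09 to 0.08 on control arrays. Without it the median over members was -0.15, and 14 of 43 probes changed sign, of which 2 had a difference of 0.25 or more in either direction. Leaving out another array changed the sign of 1 to 10 probes, with the most, and a median of -0.10, without control replicate 2. The mesenchymal marker median on this array was -2.79 and the young neuron median was 0.44. Celsr1 and Pcdh18 had their lowest value of the 6 arrays on it, and Celsr2, Celsr3, Cdh4 and the Cdh8 probe ILMN_3163448 their highest. These were picked after their values were seen, and the share of all genes extreme on that array was not counted. The part of mesenchyme and young neurons in the member values was not tested.

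**Figure D5:**
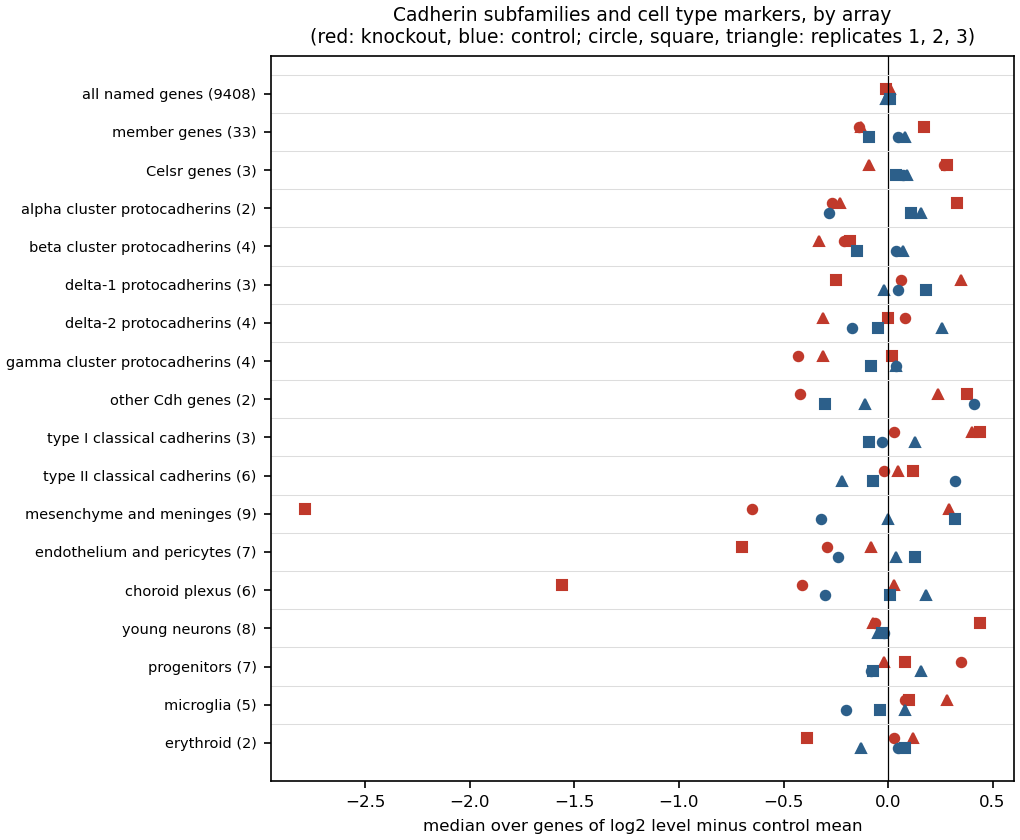
Each point is the median over the genes of a list (number in brackets) of the log2 level minus the control mean (x axis), for each of the 6 arrays. Knockout replicate 2 (red square) lies far to the left for mesenchyme, at -2.79, and choroid plexus, at -1.56, and to the right for young neurons, at 0.44, while the member genes span -0.14 to 0.17.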

How the data were processed

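The authors read Illumina mouse Ref-8 BeadChips with BeadStudio and quantile-normalized them with the lumi package; the deposited table gives a linear intensity and a detection p-value from the authors' software for each probe and array. A legend in the study gives another number of embryos per genotype than the 3 arrays per group of the labels, which were used. The labels call the samples biological replicates and give no litters, so p-values measure the spread between these samples. The probe IDs of the table were displaced: 2 of 25699 lines had a blank ID, which moved 84.8% of lines by 2 rows. Once the blanks were dropped, the remaining IDs were matched to the value rows one by one, giving 25696 probes. Gene symbols came from the platform annotation, updated through gene identifiers.

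The deposited intensities were not raw: once sorted, they differed between arrays by at most 1.61%, as after quantile normalization. Here these values were corrected, normalized again and turned to log2 with neqc (offset 16) in limma 3.58.1 (R 4.3.3), taking the negative control level from the detection p-value. The background correction thus came after the authors' normalization. Probes with a detection p under 0.05 on 3 or more arrays were compared with lmFit and eBayes, two-sided, with adjustment over 13755 probes. The code was tested on simulated data. Medians used the brightest tested probe of a gene. Where only 1 group detected a probe, a bound was computed, and no fold is given where it was not above 1. The members and lists were chosen with earlier results of these data known. All tested members are named, with each array given for the brightest of each subfamily, for those with an unadjusted p under 0.05 and for the few singled out after their values were seen. Partners are named where brightest or at that threshold. Epithelium, microglia, erythroid and muscle lists had 1, 5, 2 and 1 tested genes and no gene at an unadjusted p under 0.05. Alternatives covered background correction, the filter, the test, the replicate block, Xist level, probe names as deposited and each array left out. Promoters came from RefSeq (GRCm38.p6) and matched 22 member genes.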

Additional observations from a re-analysis of the deposited data

How the results depend on the processing

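No member probe was called at an adjusted p under 0.05 under any alternative run. Over all probes the count was 0 in the main setting and 1 under each of 3 settings, namely normexp, no background correction, and a trended robust fit. At an unadjusted p under 0.05 the main setting gave 632 probes and 2 member probes. Without the filter on dim probes these were 1169 and 4, the added members being Pcdh15 and Pcdhac1. The methods' t-test gave 1 member probe, Celsr3, as it did on the deposited values, and a term for Xist level gave 4. With each array left out in turn the member count ranged from 1 to 4, the count over all probes from 481 to 928 and the member median from -0.15 to 0.10. The lowest median was without knockout replicate 2. Same-numbered samples did not deviate together (r of -0.013, -0.079 and -0.154 for the 3 numbers), so the numbers gave no sign of pairing. With 3 arrays per group this check cannot exclude that samples shared a litter. A replicate block gave 0 member probes and 552 probes in all at the unadjusted threshold. Under the probe names as deposited, 21 of the 43 tested member probes were shared and 10 of them changed sign, and Celsr3 was at -0.03, so every value here rests on the repaired names. Signal over background limits the dim members, since the difference of the Cdh8 probe ILMN_3163448 was 0.63 in the main setting and 0.34 without background correction, while that of Celsr3 was 0.34 and 0.33.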
